A study of Mus musculus with 8 samples.

Results

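The genes described are the chemokines and chemokine receptors of the mouse, taken as every gene whose name on the array is Ccl, Cxcl, Cx3cl, Xcl, Ccr, Cxcr, Cx3cr, Xcr or Ackr followed by a number and at most 1 letter. The rule uses names and no measured value. It found 54 genes with 70 probes, 35 ligands and 19 receptors, among 55681 non-control probes. The brightest probe stood for each of the 12 genes with several probes. RNA came from CD31+ cells of 8 embryos at E12.5 on the C57Bl/6J background. In each of 2 litters, 2 embryos were homozygous for the Gata2 +9.5 mutation and 2 were wild type. Both parents were heterozygous for the mutation, and it is in the germline, so every cell of a mutant carries it. Embryos were freed of liver and brain and dissociated with collagenase, and cells were enriched on magnetic beads carrying an antibody to CD31, with 1 RNA sample and 1 one-colour array per embryo. Samples 1 and 2 of each genotype belong to litter 1 and samples 3 and 4 to litter 2. CD31 (PECAM-1) marks endothelium, and platelets and many leukocytes carry it too, so the preparations hold several cell types.

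Chemokines are small secreted proteins that draw cells along a gradient by binding G-protein-coupled receptors. Inflammatory ligands are made on demand by macrophages, endothelium and other cells and recruit leukocytes, whereas homeostatic ligands place cells during development and in resting tissue. Atypical receptors bind chemokines without the usual G-protein signal and clear them. Gata2 encodes a zinc-finger transcription factor of endothelium and early blood, and the +9.5 element is an enhancer inside one of its introns.

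Values are log2 signals relative to the 75th percentile of the same array, well above background means that the scanner software set a spot above its local background, and a difference is mutant minus wild type unless another pair is named. The 75th percentile ran from 996 to 2481 over the arrays, and 74.9% to 92.0% of non-control spots were well above background. Wild type 2, wild type 3 and mutant 4 had the 3 highest values on the first principal component (99.8, 158.6 and 124.2), which held 58.9% of the variance. Wild type 4 came next at 23.2, about as far from wild type 2 as from mutant 3 (-60.1), so the cut was a choice. Wild type 1 and mutants 1 and 2 lay at -89.7, -128.0 and -128.0. The 3 highest are called the 3 arrays that stand apart, and results are given with and without them. All 12 endothelial markers were well above background on at least 4 arrays, and their median level ran from 3.41 to 5.35 in wild type and from 3.91 to 5.43 in mutant samples. Gata2 itself was at 2.0, 1.66, 0.89 and 1.42 in wild type samples 1 to 4 and at -1.24, -0.15, -1.27 and -1.07 in mutants 1 to 4, with no overlap (difference -2.42 ± 0.39 SE, limma adjusted p = 0.0859).

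Most of the chemokine genes were measurable in these preparations, as were most features of the array. Of 46574 features without a filter, 40235 remained when 4 arrays had to be well above background. When all 8 had to be, 31589 remained. The chemokine genes were thus detected at about the rate of all features. Of the 54 genes, 40 were well above background on all 8 arrays, 6 on 4 to 7 arrays, 6 on 1 to 3 arrays and 2 on none. The 46 genes seen on at least 4 arrays were tested. The 8 others were the neutrophil attractants Cxcl3 and Cxcl5 with the receptor Cxcr1, the ligands Ccl20, Ccl22 and Cxcl15, and the receptors Ccr1 and Xcr1. Ccl20 and Cxcl3 were well above background on no array, and no direction is given for these 8 genes.

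No chemokine or receptor gene passed the test between genotypes. Of the 46 genes 0 had a limma adjusted p under 0.05, against 0.0447% of all 40235 features (18, all lower in mutants), and 3 had an unadjusted p under 0.05 (6.52%, against 3.05% of all features). Of the 57 chemokine probes listed in the authors' deposited table, 0 reached an adjusted p of 0.05 there. The estimate was below 0 for 33 of the 46 genes (71.7%, against 47.6% of all features), with a median of -0.37 beside 0.051 over all features. After median scaling, which moves all features alike, 26 of 46 estimates lay below 0, with a median of -0.11 beside 0.32 over all features. With the authors' deposited log2 values 23 of 40 did, with a median of -0.16 beside 0.40. The members' median minus that of all features was -0.42 in the scaling used. Median scaling moves all features alike and so leaves this gap nearly as it was. The gap was -0.57 with the authors' deposited values, -0.28 after quantile normalization and -0.23 without wild type 3. Over the alternatives it ran from -0.59 with the filter on all 8 arrays to -0.19 without the 3 arrays that stand apart. The differences and their errors are in the plot of genotype differences by gene group. In such bulk preparations fewer cells of a type and less RNA per cell cannot be told apart.

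**Figure D1:**
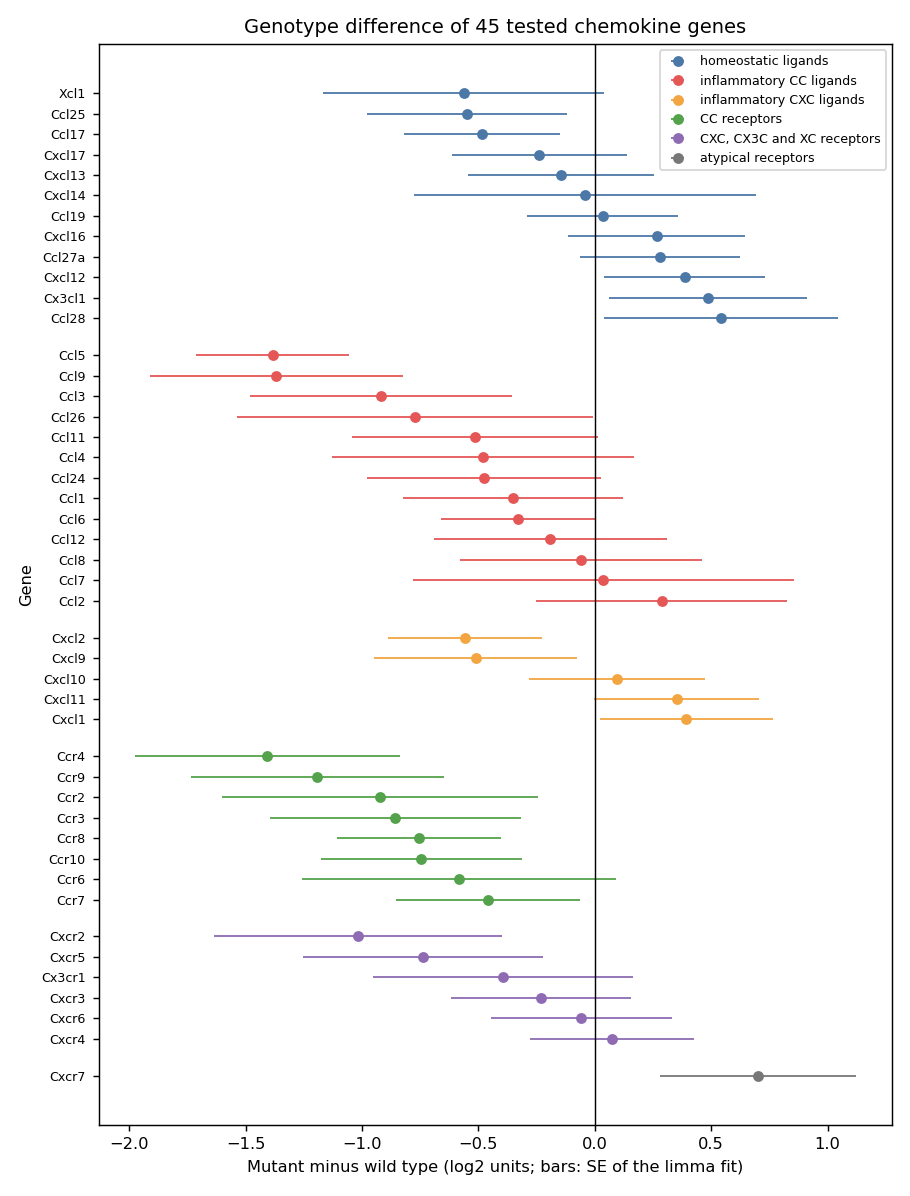
Mutant minus wild type difference (log2 units, horizontal axis) of 45 of the 46 tested chemokine genes (vertical axis), grouped by role. Points are limma estimates over 4 against 4 arrays and bars are 1 SE. The 8 CC receptors drawn lie to the left of 0, and 0 of the 46 genes passed the adjusted test.

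Among the inflammatory CC ligands, 0 of 13 passed the test, 11 estimates were below 0 (84.6%, against 47.6% of all features) and the group's median was -0.48. Ccl5 (RANTES), a ligand of Ccr1 and Ccr3 that T cells, platelets and other blood cells make, was at -0.53, -0.43, -0.29 and -0.30 in the 4 wild type samples and at -2.13, -1.30, -1.54 and -2.13 in the 4 mutants. Every mutant lay below every wild type sample. Ccl5 was the only one of the 46 genes without overlap between genotypes (2.17%, against 1.04% of all features). Its difference was -1.38 ± 0.33 (SE, n = 4 and 4, limma adjusted p = 0.717). It was -1.23 within litter 1, -1.54 within litter 2 and -1.24 without the 3 arrays that stand apart. Platelet and megakaryocyte markers moved with it. Of these 10 of 10 were lower in mutants without overlap (against 1.04% of all features) and 3 passed the test (against 0.0447%). The 10 include the platelet chemokines Pf4 and Ppbp, which are counted again below among the genes outside the naming rule. The median level of the platelet and megakaryocyte markers was 1.29 to 2.44 in wild type and -1.67 to -0.19 in mutant samples. Median differences were also -2.12 for eosinophil, -1.96 for neutrophil and -1.58 for mast cell and basophil markers. Lymphoid markers were lower for 4 of 8 genes, with a median difference of -0.017. The part of these cells in the Ccl5 values was not tested. Within each litter both mutants lay below both wild type samples for 5 of the 45 genes with values on all 8 arrays (11.1%, against 1.69% of such features). These 5 genes were Ccl5, Ccl9, Ccr9, Cxcl2 and Cxcr5.

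Ccl9 and Ccl3, neighbours of Ccl5 in the same run of genes, gave the next lowest estimates of that group. Ccl9, a ligand of Ccr1 made by myeloid cells, was at -2.11, -1.36, -0.73 and -0.41 in wild type and -3.82, -2.77, -1.65 and -1.84 in mutant samples, a difference of -1.37 ± 0.54 (limma adjusted p = 0.717). Ccl3 (MIP-1 alpha) was at -1.47, -1.13, -0.66 and 0.034 in wild type and -3.07, -2.19, -0.54 and -1.10 in mutant samples, a difference of -0.92 ± 0.56. Over all 8 arrays both overlapped between genotypes, with mutant 1 lowest in each. Within litters Ccl9 did not overlap, with differences of -1.56 and -1.18, and with litter as a replicate block its adjusted p was 0.56. Ccl3 was free of overlap in litter 1 (-1.33) and overlapped in litter 2 (-0.51). Ccl4 (MIP-1 beta), an attractant made by macrophages, was at -0.032, 0.049, 1.62 and 1.85 in wild type and -1.21, 0.13, 1.36 and 1.29 in mutant samples, a difference of -0.48 ± 0.65, smaller than its SE. The run on chromosome 11 from Ccl5 to Ccl4 spans 139 kb (probe positions, mm9). All 5 of its genes had an estimate below 0 (against 47.6% of all features), and the 1 free of overlap was Ccl5 itself.

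The monocyte attractants and their receptor gave no call either. Ccl2 (MCP-1) was at -0.18, -0.20, 1.43 and 1.78 in wild type and 0.13, 0.85, 1.53 and 1.46 in mutant samples (difference 0.29 ± 0.54). Ccl7 was at -3.0, -2.87, -0.54 and -0.042 in wild type and -3.15, -2.31, -0.44 and -0.40 in mutant samples (difference 0.037 ± 0.82), and Ccl12 at -2.22, -2.97, -1.45 and -0.94 in wild type and -2.86, -2.39, -1.67 and -1.42 in mutant samples (difference -0.19 ± 0.50). In each of these 3 ligands every difference was smaller than its SE. Their receptor Ccr2, which lets monocytes leave the blood and marrow, was at -2.82, -1.21, -0.24 and -2.78 in wild type and -2.53, -2.51, -4.13 and -1.56 in mutant samples. Its difference of -0.92 ± 0.68 was -0.26 without wild type 2, wild type 3 and mutant 4, which gave its 3 highest values. Of the 45 genes with values on all 8 arrays, 11 had their 3 highest values on these 3 arrays (24.4%, against 26.6% of such features) and 3 their 3 lowest (6.67%, against 20.9%).

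Ccr3, the eotaxin receptor of eosinophils and basophils, did not pass the test. It was at -1.0, 0.73, 0.70 and -0.97 in wild type and -1.28, -1.35, -1.46 and 0.12 in mutant samples. Its 3 highest values were those of wild type 2, wild type 3 and mutant 4, and in the other 5 arrays it ran from -1.46 to -0.97 with both wild type samples above the 3 mutants. The difference was -0.86 ± 0.54 (limma adjusted p = 0.717), -1.18 in litter 1, -0.54 in litter 2 and -0.38 without the 3 arrays. The eotaxins that bind it gave no call either. Ccl11 (eotaxin-1) was at -3.78, -2.77, -1.61 and -2.99 in wild type and -3.79, -3.46, -3.82 and -2.14 in mutant samples, a difference of -0.52 ± 0.53, and Ccl24 (eotaxin-2) was at -1.86, -0.97, -0.46 and -1.18 in wild type and -2.31, -2.45, -1.13 and -0.48 in mutant samples, a difference of -0.48 ± 0.50. Both also had their 3 highest values on these 3 arrays. Eosinophil markers were lower in mutants for 7 of 7 genes (against 47.6% of all features), 4 without overlap (against 1.04%) and 2 past the test (against 0.0447%). These 2 were Prg2 (-3.33, limma adjusted p = 0.0341) and Ear2 (-5.43, adjusted p = 0.048). Ear2 and Epx were well above background on 4 wild type arrays and only 1 mutant array each. The size of the Ear2 and Epx differences therefore rests on mutant signals mostly near background. The median level of the eosinophil markers was -1.48 to 0.37 in wild type and -4.14 to -2.15 in mutant samples, and their part in the Ccr3 values was not tested. The list of mast cell and basophil markers includes Gata2, the gene whose enhancer is mutated. These markers were lower in mutants for 8 of 9 genes (against 47.6% of all features), 3 without overlap (against 1.04%), with Gata2 among both counts. Of these markers 1 was past the test (Hdc -3.53, adjusted p = 0.0231, against 0.0447% of all features). Their median level was -1.83 to -0.80 in wild type and -3.04 to -1.80 in mutant samples, and their part was not tested either.

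All 9 tested CC receptors had an estimate below 0 (against 47.6% of all features), with a group median of -0.76, and 0 passed the test. Ccr4, a receptor of helper and regulatory T cells, gave the lowest at -1.41 ± 0.57 (limma adjusted p = 0.717). It was at -3.0, -2.21, -2.07 and -3.06 in wild type and -5.12, -4.32, -4.27 and -2.25 in mutant samples, and was well above background on 4 and 3 of these arrays. Mutant 4 lay among the wild type samples and the other 3 mutants below all of them. Ccr9, the receptor of thymus-homing cells for Ccl25, was at -2.30, -2.74, -1.10 and -0.71 in wild type and -3.92, -3.15, -2.19 and -2.36 in mutant samples (difference -1.19 ± 0.54). Within litters the genotypes of Ccr9 did not overlap, with differences of -1.02 and -1.37. With litter as a replicate block its adjusted p was 0.56. Ccl25 itself was at 0.22, 1.79, 1.62 and 0.41 in wild type and 0.35, 0.57, 0.14 and 0.80 in mutant samples, a difference of -0.55 ± 0.43 that was 0.033 without the 3 arrays. Ccr7, which guides cells to lymphoid organs, was at -2.42, -2.54, -1.74 and -1.41 in wild type and -3.11, -2.01, -2.18 and -2.66 in mutant samples (difference -0.46 ± 0.40), and its ligand Ccl19 at -1.89, -2.19, -2.10 and -2.36 in wild type and -2.61, -2.07, -1.95 and -1.77 in mutant samples (difference 0.034 ± 0.33). Of the other CC receptors, Ccr6, Ccr8 and Ccr10 gave differences of -0.58, -0.76 and -0.74. The spots of Ccr6 on wild type 2 and mutant 3 were marked as outliers and left out, so its value rests on 3 samples a genotype, and Ccr10 was well above background on 4 wild type and 2 mutant arrays.

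Cxcl12 and its receptors, which guide blood precursors and growing vessels, gave estimates at or above 0. Cxcl12 (SDF-1) was at 3.67, 3.02, 3.04 and 3.63 in wild type and 3.93, 3.87, 3.95 and 3.16 in mutant samples. Mutants 1, 2 and 3 lay above all wild type samples, while mutant 4, wild type 2 and wild type 3 held the 3 lowest values. The difference was 0.39 ± 0.35 (limma adjusted p = 0.717) and 0.27 without those 3 arrays. After quantile normalization it was -0.0036. Cxcr4, its signalling receptor, was at 0.079, 0.016, -0.48 and -0.58 in wild type and 0.17, 0.24, -0.59 and -0.49 in mutant samples, a difference of 0.073 ± 0.35. Cxcr7, now named Ackr3 and an atypical receptor that removes Cxcl12, gave the highest estimate of all 46 genes, 0.70 ± 0.42 (adjusted p = 0.717). It was at 1.89, 0.53, 0.64 and 1.87 in wild type and 2.21, 2.29, 1.70 and 1.52 in mutant samples, and without the 3 arrays its difference was 0.19. The values by array show the low wild type 2 and wild type 3 samples in both Cxcl12 and Cxcr7.

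**Figure D2:**
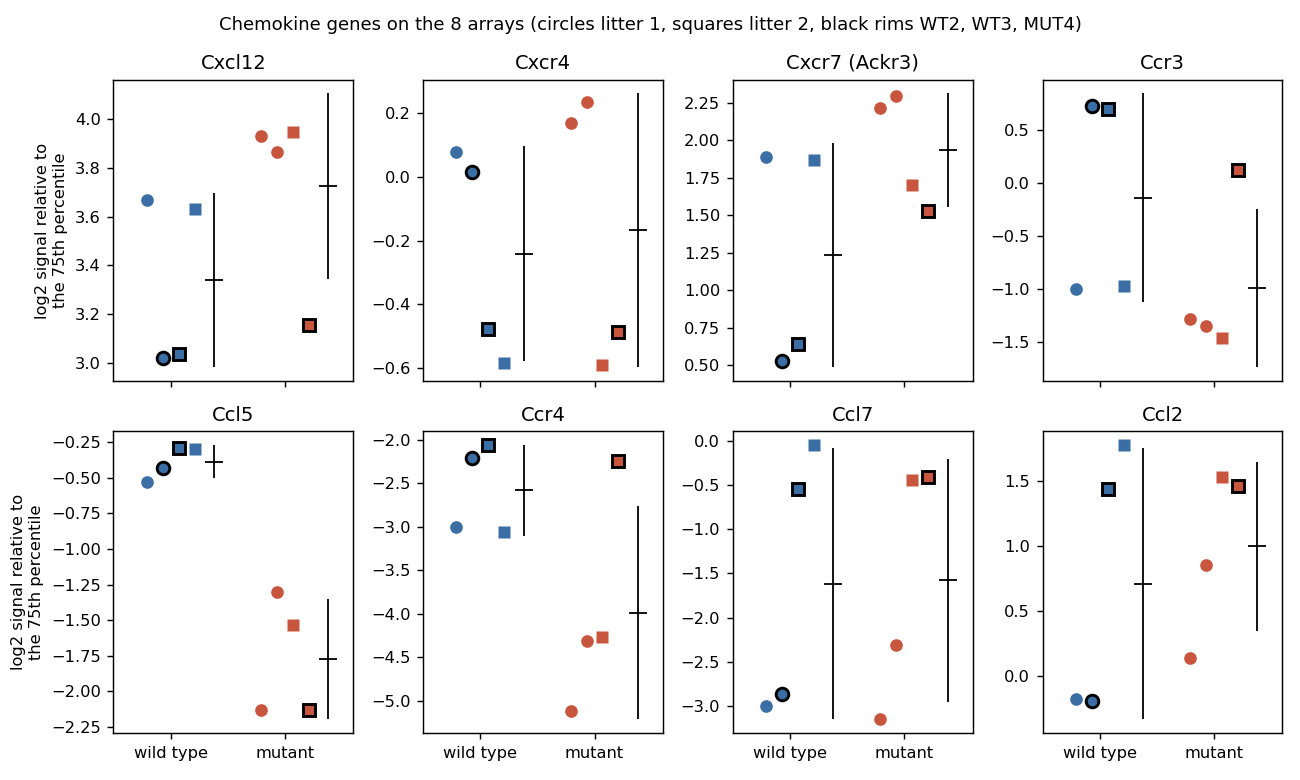
Log2 signal relative to the 75th percentile of the array (vertical axis) of 8 chemokine genes in wild type (blue) and mutant (red) samples, with the mean and 1 SD (n = 4) beside each group. Circles are litter 1, squares litter 2, and black rims mark wild type 2, wild type 3 and mutant 4. Ccl5 separates the genotypes, Ccl7 and Ccl2 separate the litters, and Ccr3, Cxcl12 and Cxcr7 set the rimmed arrays apart.

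A second probe reads Cxcl12 at another place. The stretches below are 30 of each probe's 60 bases, read 5′ to 3′ from the scanner files, with capitals for the longest run shared with a probe of another chemokine gene. They show where the genes that the comparisons turn on were read and how little sequence the probes share.
Cxcl12, probe used (chr6:117131227-117131286, plus strand, mm9): gtgtgctttcTTATTCTTAtttttaatata
Cxcl12, other probe (chr6:117125026-117125085, plus strand): tttatttaccTGAAATAAAatctactagtt
Ccr3 (chr9:123945225-123945284, plus strand): acaagaaaagtaTATGATATCacacagaaa
Ccl5 (chr11:83339296-83339355, minus strand): gaggctctgcaCAGCAAACccaagaaatca
Ccl2 (chr11:81850650-81850709, plus strand): tgtaggaGTGACCAGtgtgacagtgaacta
Ccl7 (chr11:81860656-81860715, plus strand): ttCTGAGAACTgttgatgaaatgtgttgat
Ccl12 (chr11:81916764-81916823, plus strand): ttattatgatATCTAAAAAgagatgttttt
The coordinates are those of the whole probes in the scanner files, and the exon or untranslated region each lies in was not analysed here. The shared runs of these probes were 8 or 9 bases long, and the run of Ccl7 lies in a probe of Xcr1, not in those of its neighbours Ccl2 and Ccl12. The other Cxcl12 probe, 6201 bases away, was well above background on all 8 arrays and gave a difference of 0.27 ± 0.33, beside 0.39 for the probe used.

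The remaining pairs of ligand and receptor also gave no call. Cx3cl1 (fractalkine), a membrane-bound ligand of endothelium, was at 3.14, 2.45, 1.72 and 2.43 in wild type and 3.46, 3.38, 2.63 and 2.21 in mutant samples (difference 0.49 ± 0.42). Its receptor Cx3cr1, carried by monocytes, macrophages and microglia, was at -0.0013, 0.38, 1.64 and 1.87 in wild type and -0.74, 0.78, 1.22 and 1.06 in mutant samples (difference -0.39 ± 0.56). The ranges of both genes overlapped widely between genotypes. Cxcr2, the receptor that draws neutrophils, was at -1.22, 0.56, 0.63 and -1.10 in wild type and -2.02, -1.83, -1.64 and 0.29 in mutant samples, a difference of -1.02 ± 0.62 and of -0.67 without the 3 arrays, which held its 3 highest values. Its ligand Cxcl1 was at 1.51, 0.80, 0.40 and 0.80 in wild type and 1.27, 1.21, 1.84 and 0.76 in mutant samples (difference 0.39 ± 0.37), and Cxcl2 at -2.67, -2.73, -2.02 and -2.40 in wild type and -3.22, -3.33, -2.66 and -2.85 in mutant samples (difference -0.56 ± 0.33). Neutrophil markers lay lower in mutants for 7 of 9 genes (against 47.6% of all features). Of these, 4 were past the test (against 0.0447%), among them S100a9 (-4.93, limma adjusted p = 0.0231). Another of the 4, Stfa1, was well above background on 4 wild type arrays and 2 mutant arrays. The median level of the neutrophil markers was -0.44 to 0.31 in wild type and -4.20 to -2.47 in mutant samples, and their part in the Cxcr2 values was not tested.

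Cxcl16, a scavenger receptor that is also the ligand of Cxcr6, was at -3.06, -3.39, -2.92 and -2.13 in wild type and -2.89, -3.01, -2.29 and -2.24 in mutant samples (difference 0.27 ± 0.38). Cxcr6 was at -2.40, -2.25, -1.72 and -2.15 in wild type and -2.93, -2.37, -2.09 and -1.37 in mutant samples (difference -0.059 ± 0.39). Cxcl13, the B cell attractant, was at -4.03, -3.63, -3.53 and -3.14 in wild type and -4.07, -4.49, -3.16 and -3.20 in mutant samples (difference -0.15 ± 0.40), and its receptor Cxcr5 at -3.24, -1.37, -1.92 and -2.0 in wild type and -3.68, -3.50, -2.05 and -2.25 in mutant samples (difference -0.74 ± 0.52). All 4 genes overlapped between genotypes over the 8 arrays. The epithelial ligands Ccl27a and Ccl28 were among the 8 highest estimates. Ccl27a was at -0.16, -0.54, 0.32 and 0.50 in wild type and 0.041, 0.27, 0.56 and 0.36 in mutant samples (difference 0.28 ± 0.34). Ccl28, well above background on only 2 arrays of each genotype, was at -5.83, -4.71, -4.70 and -4.13 in wild type and -3.90, -4.62, -5.32 and -3.36 in mutant samples (difference 0.54 ± 0.50). The other 14 tested genes were the ligands Ccl1, Ccl6, Ccl8, Ccl17, Ccl26, Cxcl9, Cxcl10, Cxcl14, Cxcl17 and Xcl1 and the receptors Ccr6, Ccr8, Ccr10 and Cxcr3, with differences from -0.77 for Ccl26 to 0.095 for Cxcl10.

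Cxcl11, an interferon-induced ligand of Cxcr3, was read by 2 probes 73 bases apart on chromosome 5. The brighter one, which the rule takes, was at 8.50, 7.95, 7.30 and 8.06 in wild type and 8.53, 8.40, 8.32 and 7.97 in mutant samples, a difference of 0.35 ± 0.35. The other ran from 0.52 to 1.65 over the 8 arrays and gave 0.44 ± 0.33. Both stretches are shown because the sequence of the brighter one recurs elsewhere. Capitals in the first mark its 20-base run that occurs in most promoter windows, and in the second the longest run shared with another chemokine probe.
Cxcl11, probe used (chr5:92788567-92788626, minus strand, mm9): agccaGGGCTACACAGAGAAACCCTatctt
Cxcl11, other probe (chr5:92788640-92788699, minus strand): tatacaCCTTAATTtcagcacttgaaaggc
The probe used shared at least 1 run of 20 bases, on either strand, with 22 of 32851 RefSeq promoter windows (GRCm38.p6), and the run in capitals lay in 15 of them. No other chemokine probe shared such a run with more than 2 windows, and 65 of the 70 shared none. It also shared a run of 20 bases with 7 array probes of other features, among them Elk1, Med16, Glrx2, Ndor1, Gm10856 and Timmdc1, and all 7 were well above background on 8 arrays. Elk1 ran from 8.22 to 9.29, Med16 from 7.92 to 9.34, Glrx2 from 8.34 to 9.66 and Ndor1 from 7.28 to 8.40. These levels were near those of the Cxcl11 probe used. Gm10856 ran lower, from 5.51 to 6.52, as did Timmdc1, from 0.73 to 2.68, and the unnamed feature, from -0.047 to 1.95. The other Cxcl11 probe shared none with windows or probes. Which transcripts the brighter probe reads was not tested.

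Between litters 5 of 46 genes passed the test (10.9%, against 4.91% of all features), and all 5 were higher in litter 2. They were the monocyte attractants Ccl7, Ccl2 and Ccl12, the macrophage ligand Ccl4 and the receptor Ccr9. The litters did not overlap for 12 of 46 genes (26.1%, against 14.1% of all features), 11 higher and 1, Cxcr4, lower in litter 2. Litter, slide and scan are the same grouping here and cannot be told apart.

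Ccl7 gave the largest litter difference of the 46 genes. It was at -3.0, -2.87, -3.15 and -2.31 in the litter 1 samples (wild type 1 and 2, mutants 1 and 2) and at -0.54, -0.042, -0.44 and -0.40 in the litter 2 samples (wild type 3 and 4, mutants 3 and 4). Every litter 2 sample lay above every litter 1 sample, by 2.48 ± 0.29 on average (SE, limma adjusted p = 0.0118), and by 2.64 among wild type and 2.31 among mutant samples. In the same order of samples Ccl4 was at -0.032, 0.049, -1.21 and 0.13 in litter 1 and 1.62, 1.85, 1.36 and 1.29 in litter 2 (difference 1.79 ± 0.33, adjusted p = 0.0227). Ccl2 was at -0.18, -0.20, 0.13 and 0.85 in litter 1 and 1.43, 1.78, 1.53 and 1.46 in litter 2 (difference 1.40 ± 0.30, adjusted p = 0.0365). Ccl12 was at -2.22, -2.97, -2.86 and -2.39 in litter 1 and -1.45, -0.94, -1.67 and -1.42 in litter 2 (difference 1.24 ± 0.30, adjusted p = 0.0499). None of these 4 ligands overlapped between litters. Ccr9 did overlap, at -2.30, -2.74, -3.92 and -3.15 in litter 1 and -1.10, -0.71, -2.19 and -2.36 in litter 2, with a difference of 1.43 ± 0.29 once genotype was in the model (adjusted p = 0.0315).

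**Figure D3:**
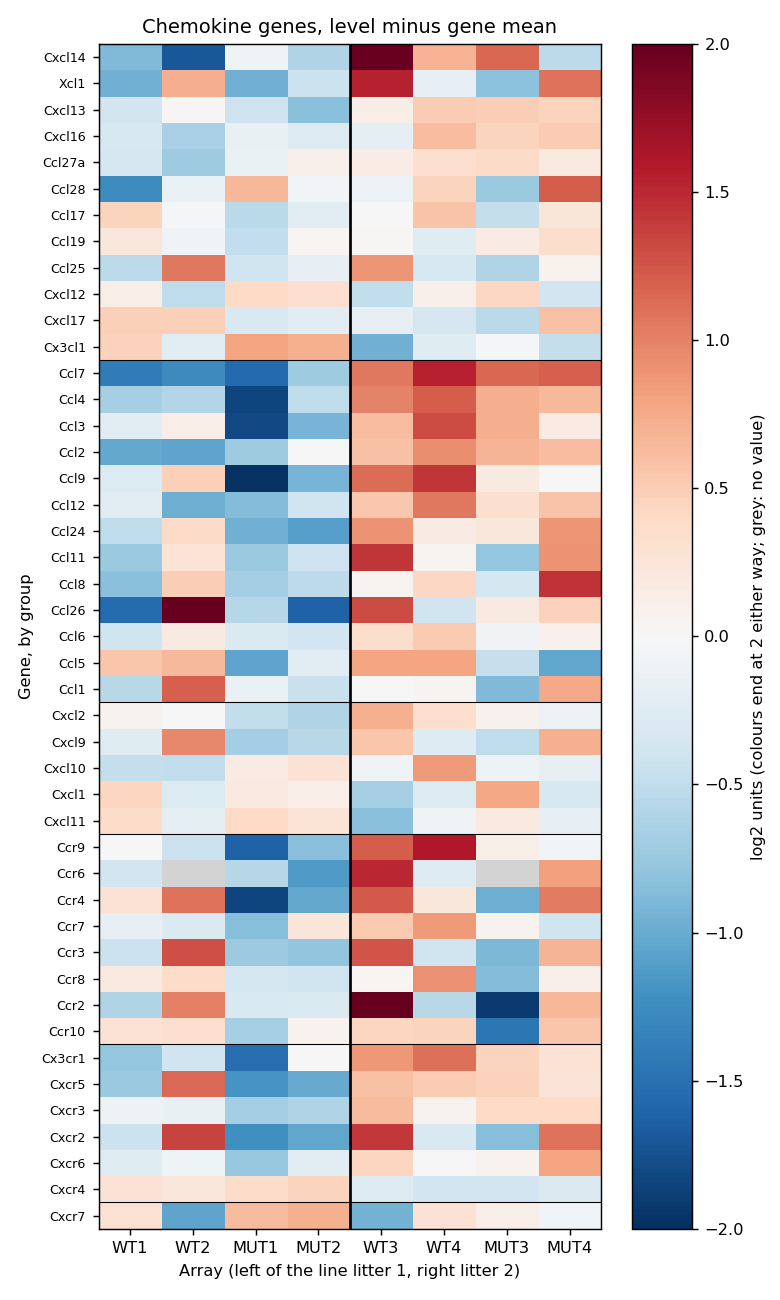
Level of 45 of the 46 tested genes (rows, grouped by role and ordered by litter difference) on the 8 arrays (columns) as log2 units from the gene's mean, red higher and blue lower, with the black line between litters. The top rows of the inflammatory CC ligands, led by Ccl7, are blue in litter 1 and red in litter 2, whereas Ccr3 and Cxcr2 are red on wild type 2, wild type 3 and mutant 4.

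Ccl7, Ccl2 and Ccl12 lie in a run of 6 ligand genes on chromosome 11 spanning 140 kb (probe positions, mm9), of which 3 passed the test between litters. The other 3, Ccl1, Ccl8 and Ccl11, gave litter differences of -0.029, 0.78 and 0.81. Of the 13 inflammatory CC ligands 4 passed (30.8%, against 4.91% of all features) and 12 estimates were above 0 (92.3%, against 64.0%), with a median of 1.09 beside 0.32 over all features. Ccl9 (1.36 ± 0.33, adjusted p = 0.051) and Ccl3 (1.40 ± 0.35, adjusted p = 0.054) missed the threshold. No inflammatory CXC ligand passed, and the 5 tested ran from -0.44 to 0.50.

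Among receptors and homeostatic ligands, Cx3cr1 was at -0.0013, 0.38, -0.74 and 0.78 in litter 1 and 1.64, 1.87, 1.22 and 1.06 in litter 2, without overlap (difference 1.34 ± 0.36, adjusted p = 0.0665), and its ligand Cx3cl1 gave the lowest litter difference of the 46 genes (-0.86 ± 0.30, adjusted p = 0.125). Cxcr4 was at 0.079, 0.016, 0.17 and 0.24 in litter 1 and -0.48, -0.58, -0.59 and -0.49 in litter 2, also without overlap (difference -0.66 ± 0.24, adjusted p = 0.138). Cxcl14, a ligand of skin and mesenchyme, gave 1.64 ± 0.55. None of these 4 genes passed the test in the setting used. Of the 17 alternatives, Cx3cl1 passed in 1 and Cxcl14, Cxcr4 and Cx3cr1 in 2 each. Without wild type 2, wild type 3 and mutant 4, the litter difference was -0.76 for Cx3cl1 (adjusted p = 0.0441), 1.53 for Cxcl14 (adjusted p = 0.0414) and -0.74 for Cxcr4 (adjusted p = 0.0455). In that run 6014 of 40135 features passed, beside 6 of the 46 chemokine genes, so these calls do not set the genes apart from other features. Cxcl14 also passed without mutant 4, and Cxcr4 after quantile normalization. Cx3cr1 was at 1.30 with normexp background correction (adjusted p = 0.0367) and at 1.34 with the trended robust fit (adjusted p = 0.0366).

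Markers of other cells moved with litter in the same samples. Macrophage and monocyte markers were higher in litter 2 for 11 of 11 genes, 10 past the test (C1qa 1.98, adjusted p = 0.0156, and Csf1r 1.31, adjusted p = 0.0367), and their median level was -1.07 to -0.50 in litter 1 and 0.75 to 1.11 in litter 2. Endothelial markers were lower in litter 2 for 12 of 12, 4 past the test (Cdh5 -1.44, adjusted p = 0.0354), with median levels of 4.56 to 5.43 and 3.41 to 4.43. Erythroid markers were higher in litter 2 for 8 of 8 genes, 3 past the test (Alas2 3.18, adjusted p = 0.0117) and 6 without overlap, with median levels of 0.87 to 1.63 and 3.20 to 4.50. Mesenchyme and pericyte markers were higher for 12 of 12, 0 past the test, with medians of 1.15 to 1.88 in litter 1 against 1.47 to 2.38. Epithelial markers were higher for 8 of 8, 1 past the test, with medians of -1.35 to -0.86 in litter 1 against -0.78 to 0.55, and lymphoid markers for 6 of 8, 2 past the test. The part of these cells in the chemokine differences was not tested.

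The count of 5 depended on scaling and on single arrays. After median scaling and with the authors' deposited log2 values only Ccl7 passed, and the median of all features was then -0.15 and -0.19 in place of 0.32. Among all called features 81.8% were higher in litter 2 in the scaling used and 44.7% after median scaling. Without wild type 1, 2, 3 or 4 the count was 1, 8, 3 and 1, and without mutant 1, 2, 3 or 4 it was 0, 0, 1 and 2. Without the 3 arrays that stand apart 6 genes passed, Ccl7, Cx3cl1, Cxcl14, Cxcl16, Cxcr4 and Cxcr5, of which Ccl7 was the only one of the original 5, and 6014 of 40135 features passed then. The litter difference of Ccl7 ran from 1.88 to 2.68 over the 17 alternatives and passed in 15 of them.

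**Figure D4:**
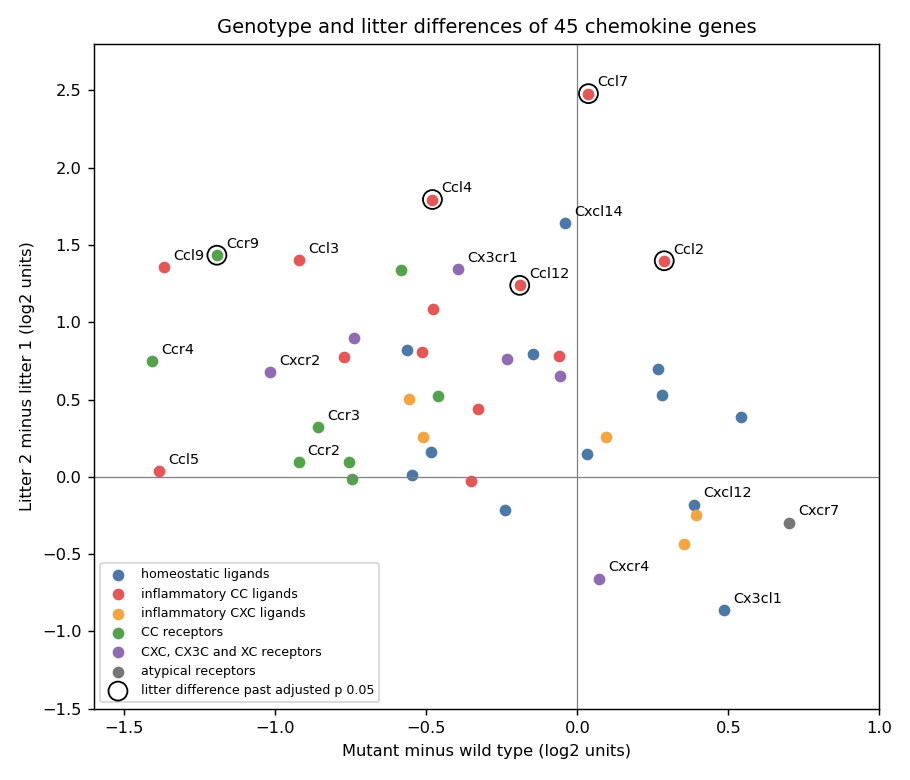
Litter 2 minus litter 1 (vertical axis) against mutant minus wild type (horizontal axis), both in log2 units, for 45 of the 46 tested genes coloured by role. Rings mark the 5 genes past the litter test, all above 0, among which Ccl7 lies near 0 and Ccr9 at -1.19 on the genotype axis.

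The genotype difference itself was compared between litters with an interaction term. Of the 46 genes 0 passed, against 0% of all features, and 0 had an unadjusted p under 0.05 (490 of all 40235 features did).

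Genes that work with chemokines but fall outside the naming rule also gave no call between genotypes. The list covered other ligands, decoy receptors and the signalling steps below the receptors. It held 47 names, of which 42 were on the array and tested. Each name without a test was a second name of a gene that was tested. Of the 42 genes 0 passed limma's adjusted test, with 6 at an unadjusted p under 0.05 (14.3%, against 3.05% of all features). The median difference was 0.043, and 4 genes were lower in mutants without overlap (9.52%, against 1.04% of all features). They were Pf4 and Ppbp, the CXC chemokines of platelet granules, Rgs18, a regulator of G-protein signals in platelets, and Rac2, a GTPase of blood cells. Pf4 was at 5.47, 4.42, 5.52 and 5.61 in wild type and 1.67, 3.19, 2.68 and 2.50 in mutant samples (difference -2.75 ± 0.42, adjusted p = 0.0846). Ppbp was at 2.75, 1.45, 2.30 and 2.48 in wild type and -1.33, 0.25, -1.24 and -1.87 in mutant samples (difference -3.30 ± 0.49, adjusted p = 0.0671), and Rgs18 at -0.33, -1.27, -0.39 and -0.29 in wild type and -3.60, -2.56, -3.88 and -3.21 in mutant samples (difference -2.75 ± 0.40, adjusted p = 0.0559). Pf4, Ppbp and Rgs18 passed in 5 of the other settings, among them normexp background correction and the filter on all 8 arrays, and Ppbp and Rgs18 also without mutant 2. The atypical receptors Ackr1, Ackr2 and Ackr4, present on the array under older names, gave -0.11, -0.069 and 0.37.

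GATA factors bind letters such as AGATAA, so the promoters were read for them. RefSeq windows from 250 bases before to 50 bases after the gene start (GRCm38.p6) matched 39 of the 54 genes with 43 windows, and 8 held AGATAA or its reverse TTATCT (18.6%, against 11.2% of all 32851 windows). The 8 genes were Ccl17, Ccl19, Ccl27a, Ccr2, Ccr3, Ccr6, Ccr8 and Cxcl10. The windows of Ccr3 and Ccr2 are shown with the match in capitals, each read on the strand that carries AGATAA.
Ccr3 (chr9:124021929-124021958, GRCm38.p6, same strand as the gene, match 30 bases before its start): gtatccatccatAGATAActcaacagagag
Ccr2 (chr9:124102074-124102103, GRCm38.p6, opposite strand): aagagaaggcggAGATAAaagagcaagtga
A match describes these letters alone and is no measured binding.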

How the data were processed

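The deposited scanner files give spot intensity on a linear scale, made with Agilent Feature Extraction 10.7.3.1 and mm9 annotation, per the file headers; this intensity is background-subtracted and was not scaled between arrays. The authors' deposited table gives log2 values, log2 fold changes (mutant over wild type) and p-values, and the submitters' processing notes name limma. Here each array's processed signal was taken to log2 and its 75th percentile subtracted, leaving out control and outlier spots. A probe had to be well above background on 4 or more of the 8 arrays, and the brightest such probe represented a feature (40235 in all). The tests used limma 3.58.1 (R 4.3.3; lmFit and eBayes, two-sided) with p-values adjusted by Benjamini-Hochberg across every feature and a threshold of 0.05. The models held genotype alone, genotype and litter, or both with their interaction. The fit was checked on simulated data. Alternatives were median and quantile scaling, normexp (offset 50), other filters, a floor at the lowest signal well above background, the authors' values, a trended robust fit, replicate blocks and leaving out arrays. Full values are given for listed ligand and receptor pairs and for the 8 lowest and 8 highest estimates, except 1 gene that is counted but not reported here. The members, lists and naming rule were chosen with earlier results of these data known.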

Additional observations from a re-analysis of the deposited data

Results flagged for a closer look

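Among the 4 samples of a genotype, 3 chemokine values lay far from the other 3, all of them on mutant 4. The mutant 4 value of Ccr3 was 0.12, with the other mutants between -1.46 and -1.28. Cxcr2 was at 0.29 on mutant 4 and between -2.02 and -1.64 on the other mutants. Cxcl12 was at 3.16 there, below the other mutants at 3.87 to 3.95. Of 64 groups of 4 examined, these 3 had a gap, as a share of the range, above Dixon's 95% critical value, and chance alone gives about 1 in 20. Mutant 4 also had the narrowest spread of log2 signals over all probes (interquartile range 2.83), and the part of this in the 3 values was not tested.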

How the results depend on the processing

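No chemokine gene taken by the naming rule passed the genotype test or the genotype by litter test under any alternative run. This includes the genotype fits with litter or sample number as a replicate block (0 genes in each). With either block no feature at all passed between genotypes. The same held without wild type 1, 3 or 4, without mutant 1 or 3 and without the 3 arrays that stand apart. In those runs the 0 for the chemokine genes follows from the 0 for all features. The genotype by litter test called no feature in any run but that on the authors' values (4 of 36359). Its 0 for the chemokine genes follows in the same way in every other run. The litter block left 0 of the 18 features called between genotypes. Sample numbers did not pair the samples, with correlations of deviations of 0.62, -0.029, -0.095 and -0.16. The count of 5 genes between litters was 1 after median scaling and 1 with the authors' values, and ran from 0 to 8 with 1 array left out; the cause was not tested. Outside the naming rule 3 chemokine system genes, the platelet chemokines Pf4 and Ppbp and the regulator Rgs18, did pass between genotypes in some settings. These were normexp, the filter on all 8 arrays, the floor, the authors' values and the trended robust fit. With 1 array left out 0 to 2 passed.

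Of the 32 genes examined one by one, 14 changed sign under some alternative (40 of 611 values), none of them past the test. Median scaling moved all features by the same amount, the median of all from 0.051 to 0.32. Ccl12 was then at 0.074, Cxcl13 at 0.12 and Cxcr6 at 0.21, but relative to that median they stayed below 0, at -0.24, -0.20 and -0.11 in both scalings. After quantile normalization Ccl12 was at 0.045, Cxcl11 at -0.025, Cxcl12 at -0.0036, Cxcl13 at 0.027 and Cxcr6 at 0.22. With normexp Cxcl13 was at 0.020 and Cxcr6 at 0.014, and with the authors' values Ccl12 was at 0.074, or -0.33 relative to their median of 0.40. Without the 3 arrays that stand apart Ccl7 was at -0.45, Ccl19 at -0.089, Ccl25 at 0.033 and Cxcl16 at -0.14. Another probe gave -0.33 for Ccl19, 0.46 for Ccl25 and -0.0023 for Ccl27a. With 1 array left out Ccl2 ran from -0.015 to 0.64, Ccl4 from -0.80 to 0.054, Ccl7 from -0.43 to 0.56, Ccl12 from -0.55 to 0.13, Ccl19 from -0.076 to 0.20, Cx3cr1 from -0.72 to 0.045, Cxcl13 from -0.34 to 0.11, Cxcr4 from -0.062 to 0.21 and Cxcr6 from -0.33 to 0.19. The 11 litter differences examined kept their sign in all 187 alternatives, which were chosen after the data were seen. Precision is limited by 4 arrays per genotype and by signals near background for Ccr4, Ccr10, Ccl8, Ccl28 and Cxcl13.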
